A study of Danio rerio with 12 samples.

Results

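The genes described here are markers and regulators of blood and lymphatic vessels, chosen by name from a list of 35 zebrafish genes that are characteristic of endothelial cells. Of the listed names, 33 matched the symbols of the deposited count table and gave 34 genes of the 25473 in it, 26 by their own symbol and 8 by a family symbol in capitals that lacks the paralogue letter. The names pecam1 and etv2 matched no symbol and are not analysed here. FLI1 (ENSDARG00000054632) is a single gene that matched both listed fli1 names. Its symbol does not say which paralogue it is, and the other paralogue is not analysed here. EFNB2 and AQP1 each stand for 2 genes, which are told apart by their identifiers. The rule for membership uses names alone.

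RNA selected for polyadenylation was sequenced from whole zebrafish larvae at 3 days post-fertilization, with 4 libraries from each genotype. The genotypes were wild type (WT), yap-/- larvae (here the yap mutant), and larvae that were yap-/- and also taz-/- (here the yap taz mutant), so that both mutants lack yap and only the last lacks taz. No treatment is named in the labels, and neither the mutant alleles nor the number of larvae in a library is given in the sources used here. Total counts were 7028251 to 8657381 per library. Levels are counts per 1000000 counts of tested genes (CPM), with library sizes scaled by TMM (trimmed mean of M-values). YAP1 was at 89.3, 88.3, 78.3 and 97.8 CPM in the WT libraries, 69.8, 51.7, 60.8 and 57.1 CPM in the yap mutant and 64.6, 73.1, 69.2 and 72.6 CPM in the yap taz mutant, and fell in both (-0.56 ± 0.0943, adjusted p = 0.00149 and -0.34 ± 0.0939, adjusted p = 0.0126). Here and below such values are a log2 fold change ± SE, with its adjusted p from the edgeR quasi-likelihood test. WWTR1, which encodes Taz, was at 8.34, 5.40, 7.86 and 6.51 CPM in WT, 11.3, 9.51, 9.22 and 11.4 CPM in the yap mutant and 4.48, 5.39, 5.77 and 6.61 CPM in the yap taz mutant. The transcript was lower in the yap taz mutant than in the yap mutant (-0.90 ± 0.170, adjusted p = 0.00673) and not called against WT (-0.35 ± 0.175, adjusted p = 0.156). The yap mutant had more of it than WT (0.56 ± 0.162, adjusted p = 0.0425), a call lost in 10 of 21 alternatives, namely no filter, the 8 libraries alone and the omission of WT 2, 3 or 4, of yap mutant 1, 2 or 4 or of yap taz mutant 2 or 3 (adjusted p = 0.0530 to 0.122).

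Endothelial cells line every blood and lymphatic vessel and the inside of the heart. Vascular endothelial growth factors (VEGFs) act on them through receptor tyrosine kinases, Notch signalling with its ligand Dll4 supports arterial identity, and the transcription factors Nr2f2 and Prox1 are known for venous and lymphatic identity. In the zebrafish larva certain veins and lymphatic-like cells take up waste through scavenger receptors such as the stabilins. Yap and Taz are co-activators that the Hippo kinases restrain, and in mammals both act in vessel growth. Many of these genes are also active elsewhere (NR2F2 and PROX1 in neural tissue and other organs, for example), and in a whole larva fewer cells of a type and less RNA per cell cannot be told apart.

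Vessel genes that changed in the yap mutant rose, while those of the yap taz mutant went in both directions. One gene, AQP1 (ENSDARG00000091027), had between 0 and 4 counts in the WT libraries and 0 in every mutant library and was not tested, so that 33 of 34 genes passed the filter on low counts. Genes counted as called had a p under 0.05 after Benjamini-Hochberg adjustment over all 19493 genes tested. In the yap mutant against WT 9 of the 33 were called higher and 0 lower, or 27.3%, where 9.13% of all genes tested were called (5.72% higher and 3.41% lower). In the yap taz mutant against WT 12 were called higher and 5 lower, or 51.5%, beside 27.7% of all genes (13.9% and 13.8%). The share of vessel genes called lower there, 15.2%, was near that of all genes, while 36.4% were called higher. Between the mutants 1 was higher and 3 were lower in the yap taz mutant, or 12.1%, beside 4.18% of all genes (1.92% and 2.26%). The median log2 fold changes of the vessel genes were 0.22, 0.14 and 0.0056 in the same order, while the medians of all genes tested were 0.0037, 0.008 and -0.00096. Both comparisons with WT use the same 4 WT libraries, so their calls are not independent of each other.

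Counted by libraries, 10 vessel genes had all 4 yap mutant libraries above all 4 WT libraries and 0 had them below, beside 7.93% and 5.36% of all genes. For the yap taz mutant against WT the counts were 12 above and 8 below, beside 14.5% and 14.4%. Between the mutants they were 3 and 6, beside 5.28% and 5.53%. Same-numbered libraries of WT and the yap mutant deviated together from their group means, and with the number as a block 12 vessel genes were called against WT, all of them higher, while the count over all genes rose from 1780 to 2758. Without yap mutant 3 the count over all genes was 3041 and that of vessel genes 11, and on omission of WT 2 or 3, or of yap mutant 1 or 4 the counts were 942 to 1076 and 6 to 7. The 4 calls between the mutants fell to 2 without yap mutant 3 or without yap taz mutant 2, and over all genes from 814 to 538 and 441, and to 468 without yap mutant 2 and 497 without yap taz mutant 4.

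**Figure D1:**
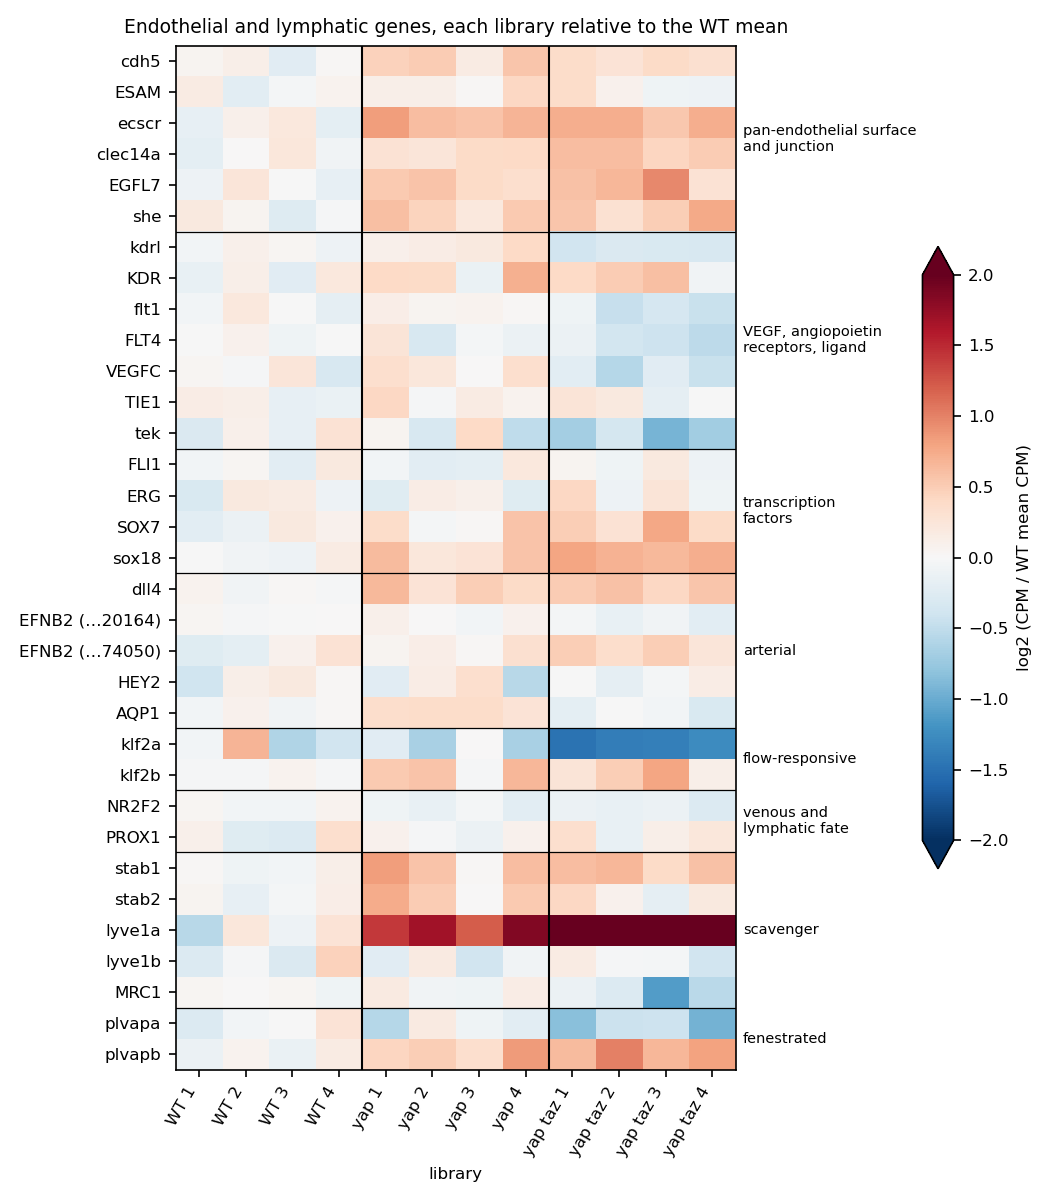
Level of each of the 33 tested vessel genes (rows, by role) in each of the 12 libraries (columns), as log2 of the CPM over the WT mean, with colours ending at 2 and -2. The lyve1a row is the reddest in both mutants, klf2a is the bluest in the 4 yap taz mutant libraries, and the surface and junction genes at the top are mostly red in both mutants.

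Genes of the endothelial surface and junctions were among those that rose. Of 6 tested, 3 rose in the yap mutant, 5 rose in the yap taz mutant, and 0 fell, with median log2 fold changes of 0.44 and 0.54. The class leaves out kdrl, TIE1 and FLI1, which also mark endothelium in general and are counted below in other classes. Of these kdrl fell in the yap taz mutant (-0.32 ± 0.0862, adjusted p = 0.0112), and TIE1 and FLI1 were called in neither mutant. Of all genes tested, 5.72% and 13.9% were called higher in the same order. The endothelial cell surface gene ecscr (ENSDARG00000087457) was at 7.34, 8.82, 9.48 and 7.19 CPM in the WT libraries, at 14.7, 12.5, 12.2 and 13.1 CPM in the yap mutant and at 13.6, 13.5, 11.97 and 13.6 CPM in the yap taz mutant. Every mutant library lay above every WT library, and the mutants overlapped each other. The rise of ecscr was 0.68 ± 0.126, adjusted p = 0.00319 in the yap mutant, and that in the yap taz mutant was 0.69 ± 0.126, adjusted p = 0.000731.

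The gene of VE-cadherin, cdh5 (ENSDARG00000075549), which joins endothelial cells to each other, was at 46.8, 49.0, 38.7 and 45.9 CPM in WT. It was at 62.4, 64.1, 50.6 and 66.2 CPM in the yap mutant and at 58.3, 54.7, 58.8 and 56.3 CPM in the yap taz mutant. Yap mutant 3 was the lowest mutant library and still lay above the highest WT library. The fold changes of cdh5 were 0.43 ± 0.0933, adjusted p = 0.00914 and 0.34 ± 0.0938, adjusted p = 0.0130, rises of 34.9% and 26.4%.

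The endothelial C-type lectin gene clec14a (ENSDARG00000103533) had group means of 17.8 ± 2.22, 22.4 ± 1.20 and 26.0 ± 1.65 CPM (SD, n = 4) in the order WT, yap mutant and yap taz mutant. It rose in the yap taz mutant (0.55 ± 0.1003, adjusted p = 0.000720) and stood at the threshold in the yap mutant (0.33 ± 0.101, adjusted p = 0.0502, and adjusted p = 0.0471 with the replicate block and 0.0270 without WT 3). EGFL7 (ENSDARG00000100657), a protein that endothelial cells secrete, had means of 8.26 ± 1.04, 11.3 ± 0.900 and 13.0 ± 2.47 CPM. It too rose in the yap taz mutant (0.65 ± 0.148, adjusted p = 0.00378), with a value in the yap mutant of 0.46 ± 0.149, adjusted p = 0.0637 (adjusted p = 0.0349 with the block, and under 0.05 also on omission of yap taz mutant 3 or 4). The adaptor gene she (ENSDARG00000087956) had means of 23.2 ± 2.93, 31.7 ± 3.63 and 33.7 ± 4.34 CPM and rose in both mutants (0.45 ± 0.118, adjusted p = 0.0267 and 0.54 ± 0.118, adjusted p = 0.00288). The first of these calls was lost on omission of WT 2 or 3, or of yap mutant 1, 2 or 4 (adjusted p = 0.0520 to 0.0921). ESAM (ENSDARG00000077039), a junctional adhesion molecule, was called in neither mutant (0.17 ± 0.140, adjusted p = 0.471 and 0.077 ± 0.142, adjusted p = 0.729), with means of 10.6 ± 1.17, 11.9 ± 1.49 and 11.1 ± 1.73 CPM.

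No growth factor receptor gene was called higher in either mutant. Of the 7 receptors and ligands of the VEGF and angiopoietin systems, 0 were called in the yap mutant, beside 9.13% of all genes. The yap taz mutant had 2 lower and 0 higher (median -0.32), beside 13.8% and 13.9% of all genes. The receptor gene kdrl (ENSDARG00000105215), widely used to mark zebrafish vessels, was at 33.3, 37.2, 35.5 and 32.1 CPM in WT and at 37.0, 38.1, 39.6 and 45.8 CPM in the yap mutant. In the yap taz mutant it was at 26.5, 28.3, 28.1 and 27.8 CPM, below every library of both other genotypes. It fell against WT (-0.32 ± 0.0862, adjusted p = 0.0112) and against the yap mutant (-0.54 ± 0.0857, adjusted p = 0.00242), and its value in the yap mutant against WT was 0.22 ± 0.0838, adjusted p = 0.115. In the same yap taz mutant libraries cdh5 was above the WT range.

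The angiopoietin receptor gene tek (ENSDARG00000028663) was at 4.12, 5.40, 4.49 and 6.18 CPM in WT, at 5.22, 4.06, 6.66 and 3.56 CPM in the yap mutant and at 3.15, 3.94, 2.66 and 3.10 CPM in the yap taz mutant. All 4 yap taz mutant libraries lay below the WT range, while the yap mutant libraries spanned it. The fall against WT (-0.64 ± 0.227, adjusted p = 0.0441) was lost in 10 of 21 alternatives, 7 of which left out a library (WT 2, 3 or 4, yap mutant 1, or yap taz mutant 1, 3 or 4), at adjusted p = 0.0519 to 0.116. TIE1 (ENSDARG00000004105), its partner receptor, had means of 24.03 ± 2.67, 26.9 ± 3.68 and 25.4 ± 3.44 CPM and was not called (0.16 ± 0.121, adjusted p = 0.419 and 0.083 ± 0.122, adjusted p = 0.654).

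The other VEGF genes were not called. KDR (ENSDARG00000017321), the second receptor of this kind, had means of 11.2 ± 1.65, 14.5 ± 3.35 and 14.6 ± 2.79 CPM, a difference of 0.38 ± 0.179, adjusted p = 0.131 in the yap taz mutant against WT. The decoy receptor gene flt1 (ENSDARG00000019371) had means of 9.37 ± 1.05, 9.87 ± 0.325 and 7.49 ± 0.933 CPM, with -0.32 ± 0.134, adjusted p = 0.0908 against WT in the yap taz mutant, and adjusted p = 0.0473 without yap taz mutant 1. FLT4 (ENSDARG00000104453), the receptor of veins and lymphatics, had 14.2 ± 0.688, 13.8 ± 2.35 and 11.2 ± 1.37 CPM. Its 4 yap taz mutant libraries all lay below the 4 WT libraries, but the difference was not called (-0.35 ± 0.134, adjusted p = 0.0649), other than without yap mutant 1, without yap taz mutant 1, with the 8 libraries alone or with the block (adjusted p = 0.0373 to 0.0495). Its ligand gene VEGFC (ENSDARG00000069640), which drives lymphatic growth, was at 2.94 ± 0.465, 3.45 ± 0.360 and 2.296 ± 0.278 CPM, with -0.35 ± 0.208, adjusted p = 0.245 against WT and -0.58 ± 0.205, adjusted p = 0.127 against the yap mutant.

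**Figure D2:**
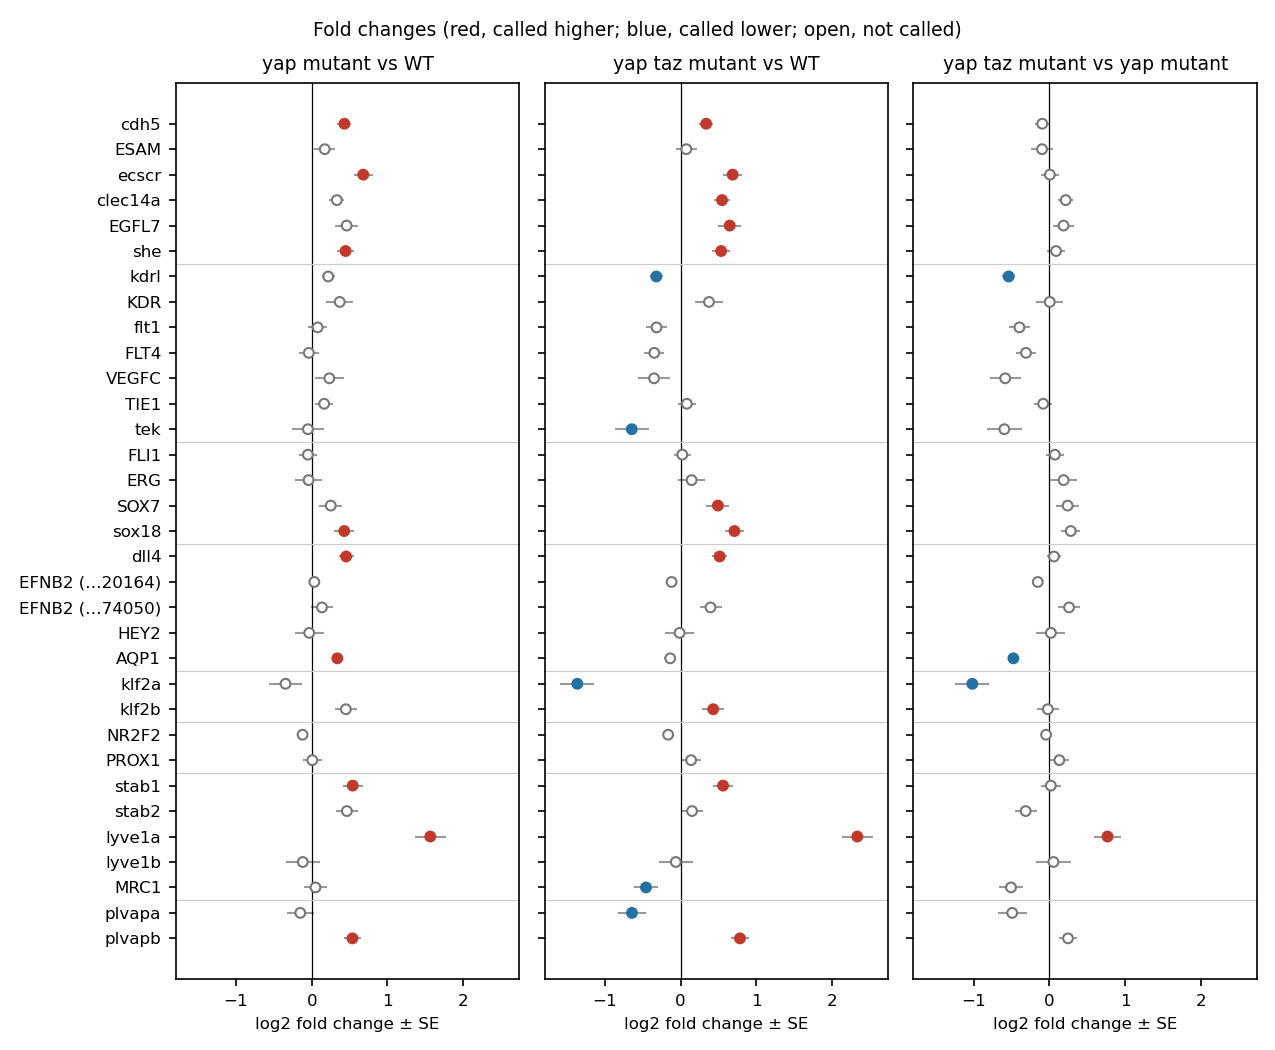
Log2 fold change ± SE (x axis) of the 33 tested vessel genes (y axis, in the same order by role) in the 3 comparisons, with filled points for called genes. In the left panel all 9 filled points lie to the right of 0, while the middle panel has 12 to the right and 5 to the left.

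Among transcription factors, sox18 and SOX7 of the SoxF family rose in the yap taz mutant, and FLI1 and ERG of the ETS family were not called. The gene sox18 (ENSDARG00000058598), a SoxF factor of vessel and lymphatic development, was at 7.68, 7.37, 7.23 and 8.65 CPM in WT, 11.9, 8.999, 9.35 and 11.4 CPM in the yap mutant and 13.3, 12.5, 12.1 and 12.8 CPM in the yap taz mutant. The groups did not overlap WT in either mutant. Its rise in the yap taz mutant was 0.71 ± 0.128, adjusted p = 0.000640, and that in the yap mutant (0.43 ± 0.130, adjusted p = 0.0494) was lost in 16 of 21 alternatives, among them both other scalings and the omission of WT 1, WT 2, WT 3, yap mutant 1, yap mutant 4 or any yap taz mutant library (adjusted p = 0.0508 to 0.158). SOX7 (ENSDARG00000030125), of the same family, had means of 12.5 ± 1.63, 14.8 ± 2.95 and 17.6 ± 2.65 CPM. It rose in the yap taz mutant (0.49 ± 0.152, adjusted p = 0.0232), a call lost on omission of WT 1 or 2, or of yap taz mutant 3 (adjusted p = 0.0613 to 0.0836), and had 0.25 ± 0.153, adjusted p = 0.324 in the yap mutant. The ETS factor genes FLI1 and ERG (ENSDARG00000077304), which maintain endothelial identity, had differences of 0.023 ± 0.114, adjusted p = 0.902 and 0.15 ± 0.173, adjusted p = 0.571 in the yap taz mutant against WT. Their means in WT, the yap mutant and the yap taz mutant were 31.0 ± 3.69, 29.9 ± 4.29 and 31.5 ± 3.12 CPM for FLI1 and 6.90 ± 1.11, 6.68 ± 0.968 and 7.60 ± 1.37 CPM for ERG.

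Of 5 tested arterial genes 2 rose in the yap mutant, 1 rose in the yap taz mutant, and 0 fell. Over all genes tested the shares called higher were 5.72% and 13.9%, and those called lower 3.41% and 13.8%. The Notch ligand gene dll4 (ENSDARG00000070425) was at 16.6, 15.005, 16.1 and 15.5 CPM in WT, at 24.7, 19.1, 22.1 and 20.6 CPM in the yap mutant and at 22.5, 23.8, 21.0 and 23.1 CPM in the yap taz mutant. Every mutant library lay above every WT library, with rises of 0.45 ± 0.0986, adjusted p = 0.00934 and 0.52 ± 0.0987, adjusted p = 0.00102. HEY2 (ENSDARG00000013441), a Notch target that promotes arterial fate, had means of 7.31 ± 1.22, 7.12 ± 1.90 and 7.22 ± 0.683 CPM and was not called (-0.032 ± 0.190, adjusted p = 0.935 and -0.012 ± 0.191, adjusted p = 0.970).

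The water channel gene AQP1 (ENSDARG00000023713) was highest in the yap mutant. It was at 81.4, 90.4, 80.7 and 86.6 CPM in WT, at 108, 109.9, 109 and 102 CPM in the yap mutant and at 74.2, 84.1, 81.3 and 69.0 CPM in the yap taz mutant. All yap mutant libraries lay above all libraries of the other groups, which overlapped. It rose in the yap mutant (0.34 ± 0.0760, adjusted p = 0.0117), was lower again in the yap taz mutant (-0.47 ± 0.0765, adjusted p = 0.00263 between the mutants) and had -0.14 ± 0.0768, adjusted p = 0.204 in the yap taz mutant against WT. Aquaporin-1 is also a protein of red blood cells in mammals. Of 8 tested erythroid and thrombocyte markers 0 rose and 0 fell in the yap mutant, beside 5.72% and 3.41% of all genes. In the yap taz mutant 2 fell against WT and 1, the anion exchanger gene SLC4A1 (ENSDARG00000012881, -1.03 ± 0.149, adjusted p = 0.00142), fell against the yap mutant, and 0 rose. Of all genes tested 13.8% were called lower against WT and 2.26% against the yap mutant. The summed level of all 10 matched markers, tested or not, was 655 to 1078 CPM in WT, 675 to 921 CPM in the yap mutant and 659.6 to 867 CPM in the yap taz mutant. Their part in the AQP1 values was not tested.

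Ephrin-B2 is the arterial partner of the venous receptor EphB4. EFNB2 (ENSDARG00000020164) had means of 81.3 ± 1.44, 83.2 ± 4.15 and 74.9 ± 4.099 CPM and EFNB2 (ENSDARG00000074050) of 7.65 ± 1.33, 8.42 ± 0.783 and 10.1 ± 0.853 CPM. Neither was called, with -0.12 ± 0.0686, adjusted p = 0.219 and 0.40 ± 0.145, adjusted p = 0.0521 in the yap taz mutant against WT, the latter past the threshold with limma-voom, with the block and without WT 4 (adjusted p = 0.0186 to 0.0477). All yap taz mutant libraries of the former lay just below its WT libraries, at most 79.1 CPM against at least 79.8 CPM.

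The flow-responsive pair moved in opposite directions in the yap taz mutant. The genes klf2a and klf2b encode Krüppel-like factors, and klf2a is known in zebrafish as a gene that blood flow induces in endothelium. Levels of klf2a (ENSDARG00000042667) were 58.1, 96.2, 39.8 and 46.3 CPM in WT, 51.2, 38.5, 60.4 and 38.5 CPM in the yap mutant and 21.7, 23.0, 23.4 and 25.2 CPM in the yap taz mutant. The yap taz mutant libraries lay close together and below all 8 others, while WT 2 was far above the other WT libraries. Its fall against WT was -1.36 ± 0.225, adjusted p = 0.000308, or 2.57-fold lower, and against the yap mutant -1.02 ± 0.227, adjusted p = 0.0173. The last call was lost on omission of yap mutant 3, or of yap taz mutant 2 (adjusted p = 0.0543 to 0.0583), and the difference between the yap mutant and WT was not called (-0.35 ± 0.212, adjusted p = 0.328).

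In contrast klf2b (ENSDARG00000040432) was at 25.4, 25.1, 26.8 and 25.3 CPM in WT, 36.8, 37.9, 25.1 and 40.4 CPM in the yap mutant and 30.7, 35.9, 44.3 and 27.7 CPM in the yap taz mutant. Yap mutant 3 lay just below the lowest WT library and the other mutant libraries above the highest. It rose in the yap taz mutant (0.43 ± 0.148, adjusted p = 0.0389), a call lost with limma-voom and without any 1 of the WT libraries, and on omission of yap taz mutant 2 or 3 (adjusted p = 0.0599 to 0.144). In the yap mutant it had 0.45 ± 0.147, adjusted p = 0.0658, and adjusted p = 0.0148 with the replicate block in the 8 libraries alone, 0.00730 without yap mutant 3 and 0.0429 without yap taz mutant 3.

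Some heart markers were also lower in the yap taz mutant. Of 11 tested heart and endocardium markers 5 fell and 1 rose in the yap taz mutant against WT, beside 13.8% and 13.9% of all genes, and 4 fell and 0 rose against the yap mutant, beside 2.26% and 1.92%. MYL7 (ENSDARG00000019096), a myosin light chain of heart muscle, had -1.15 ± 0.146, adjusted p = 2.86e-05 against WT. MYH6 (ENSDARG00000079564), named for a heart myosin, had -0.72 ± 0.156, adjusted p = 0.0147 against the yap mutant. This MYH6 call was lost on omission of yap mutant 2, or of yap taz mutant 4 (adjusted p = 0.0523 to 0.0564). The heart list also holds a separate gene with the symbol myh6 (ENSDARG00000090637). Which heart chamber the MYH6 value stands for was therefore not settled. The natriuretic peptide genes nppa (ENSDARG00000052960) and nppb (ENSDARG00000052958) rose in the yap mutant (0.94 ± 0.170, adjusted p = 0.00263 and 1.67 ± 0.250, adjusted p = 0.000616), and nppb also in the yap taz mutant (1.28 ± 0.262, adjusted p = 0.00176). Levels of nppb were low, at 0.748 to 1.01 CPM in WT, or 6 to 9 counts. It had 19 to 30 counts in the yap mutant libraries and 13 to 20 in those of the yap taz mutant. The summed level of the heart list was 206 to 230.2 CPM in WT, 208 to 263 CPM in the yap mutant and 127 to 173 CPM in the yap taz mutant, and 0 of its genes had a count of 0 in any library. NFATC1, an endocardial gene of the list, had -0.064 ± 0.176, adjusted p = 0.820 in the yap taz mutant against WT, a value that does not stand for the endocardium as a whole. The part of heart tissue in the klf2a values was not tested.

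Transcription factors of venous and lymphatic fate were not called in any comparison. NR2F2 (ENSDARG00000040926), known for venous identity, had means of 157 ± 7.32, 145 ± 7.27 and 140.3 ± 7.43 CPM, with -0.12 ± 0.0699, adjusted p = 0.300 for the yap mutant against WT and -0.16 ± 0.0700, adjusted p = 0.0940 for the yap taz mutant. Its yap taz mutant libraries, at 129 to 145.3 CPM, all lay below its WT libraries, at 150.4 to 165 CPM. PROX1 (ENSDARG00000055158), the lymphatic regulator, had means of 40.1 ± 8.13, 40.4 ± 2.62 and 44.3 ± 6.26 CPM, with 0.008 ± 0.129, adjusted p = 0.978 and 0.14 ± 0.129, adjusted p = 0.455. Both genes are active in several other organs of the larva, whose values these libraries include.

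Scavenger receptor genes held the largest change among the vessel genes tested, that of lyve1a. The gene lyve1a (ENSDARG00000075833) encodes a member of the LYVE1 family, which in mammals binds hyaluronan on lymphatic endothelium. It was at 3.34, 5.79, 4.61 and 5.95 CPM in WT, at 13.2, 15.8, 11.4 and 17.8 CPM in the yap mutant and at 20.5, 32.5, 21.0 and 25.2 CPM in the yap taz mutant. No library of one genotype overlapped another, in the order WT, yap mutant, yap taz mutant. The fold change was 1.57 ± 0.208, adjusted p = 0.000220 (2.96-fold) in the yap mutant and 2.33 ± 0.202, adjusted p = 6.80e-07 (5.04-fold) in the yap taz mutant, and these calls held in all 21 alternatives. Between the mutants it was 0.77 ± 0.179, adjusted p = 0.0222, a call lost on omission of yap mutant 1 or 3, or of yap taz mutant 2 or 4 (adjusted p = 0.0584 to 0.0929).

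Its paralogue lyve1b (ENSDARG00000062483), a common marker of zebrafish lymphatics and veins, was at 2.78, 3.29, 2.74 and 4.60 CPM in WT, 2.86, 3.80, 2.56 and 3.18 CPM in the yap mutant and 3.75, 3.29, 3.25 and 2.56 CPM in the yap taz mutant. The 3 groups overlapped, and neither difference from WT was called (-0.12 ± 0.224, adjusted p = 0.784 and -0.062 ± 0.224, adjusted p = 0.866).

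The stabilins, endocytic receptors of hyaluronan and other waste, were called differently in the yap taz mutant, a difference that was itself not tested. The gene stab1 (ENSDARG00000076484) was at 18.9, 17.6, 17.95 and 20.2 CPM in WT, 33.3, 27.9, 19.1 and 28.6 CPM in the yap mutant and 28.7, 29.4, 24.2 and 27.9 CPM in the yap taz mutant. Yap mutant 3 lay within the WT range and all other mutant libraries above it. It rose in both (0.54 ± 0.135, adjusted p = 0.0207 and 0.56 ± 0.135, adjusted p = 0.00535), the former call being lost with the 8 libraries alone and on omission of WT 2 or 3, or of yap mutant 1 or 4 (adjusted p = 0.0515 to 0.0780). For stab2 (ENSDARG00000045748) the values were 19.9, 17.2, 18.8 and 21.0 CPM in WT, 32.0, 27.4, 19.3 and 27.6 CPM in the yap mutant and 25.8, 20.5, 17.0 and 22.1 CPM in the yap taz mutant. Its yap mutant value was 0.46 ± 0.145, adjusted p = 0.0556 (adjusted p = 0.0119 with the replicate block and 0.00659 without yap mutant 3, and under 0.05 also with DESeq2 or without yap taz mutant 3), and its yap taz mutant value 0.15 ± 0.148, adjusted p = 0.480.

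MRC1 (ENSDARG00000102100), the mannose receptor, marks zebrafish lymphatics and veins, and macrophages in mammals. It was at 23.5, 22.9, 23.3 and 21.4 CPM in WT, 25.8, 21.8, 21.4 and 25.3 CPM in the yap mutant and 21.1, 18.8, 10.5 and 15.7 CPM in the yap taz mutant. All yap taz mutant libraries lay below every WT and yap mutant library, narrowly in yap taz mutant 1 and by a wide margin in yap taz mutant 3. Its fall against WT (-0.46 ± 0.153, adjusted p = 0.0356) was lost on omission of WT 1, 2 or 3, or of yap taz mutant 3 or 4 (adjusted p = 0.0641 to 0.0812).

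Macrophages can carry stabilin and mannose receptors, and most myeloid markers tested were higher in both mutants. Of 9 tested, from 13 names, 6 rose and 0 fell in the yap mutant, beside 5.72% and 3.41% of all genes. In the yap taz mutant 7 rose and 0 fell, beside 13.9% and 13.8%. Their summed level was 53.7 to 65.0 CPM in WT, 63.6 to 106 CPM in the yap mutant and 111 to 135 CPM in the yap taz mutant, with 0 of the 9 matched markers at a count of 0 in any library. The macrophage genes IRF8 (1.33 ± 0.259, adjusted p = 0.00483 and 2.36 ± 0.241, adjusted p = 3.46e-06) and marco (0.78 ± 0.207, adjusted p = 0.0275 and 1.61 ± 0.197, adjusted p = 1.98e-05) rose in both mutants. The gene cybb rose in the yap mutant (1.102 ± 0.239, adjusted p = 0.00941). Its means were 3.13, 6.74 and 10.9 CPM in WT, the yap mutant and the yap taz mutant, and all yap taz mutant libraries lay above all WT libraries. The marco call in the yap mutant was lost on omission of WT 2, 3 or 4, or of yap mutant 1 or 2 and with the 8 libraries alone (adjusted p = 0.0541 to 0.104). The share of myeloid cells in the values of stab1, MRC1 and lyve1a was not tested.

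**Figure D3:**
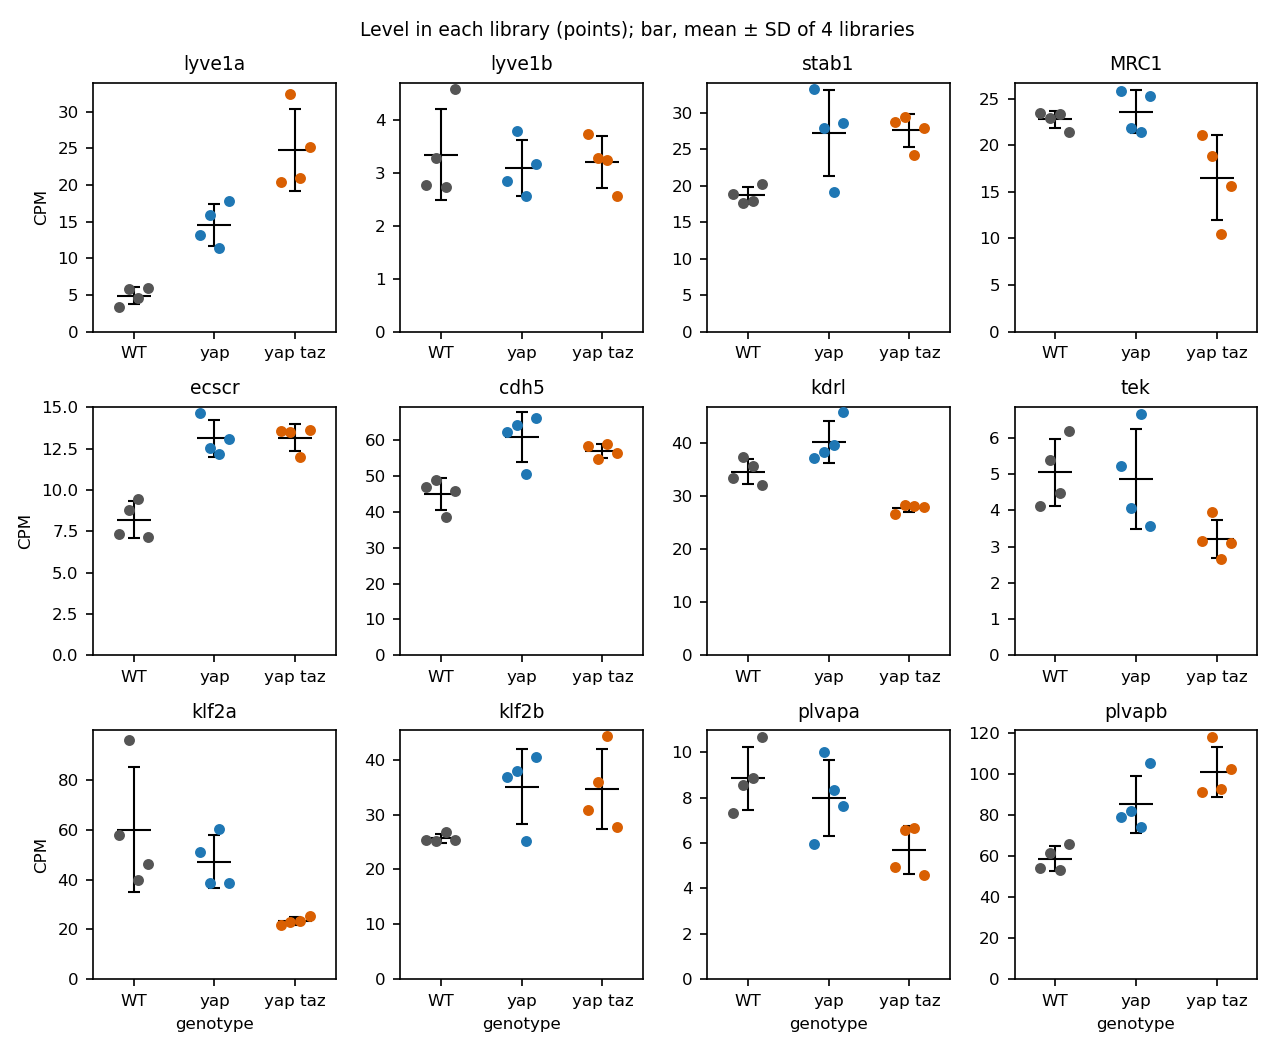
Level of 12 vessel genes in CPM (y axis, from 0) in each of the 4 libraries per genotype (points), with the mean ± SD as bars. The genotypes are fully separated for lyve1a, and both mutants lie above WT for ecscr, cdh5 and plvapb. The yap taz mutant alone lies below the other 2 for kdrl, klf2a and, narrowly, MRC1.

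The fenestration genes moved apart in the yap taz mutant. Plvap forms the diaphragms of fenestrated capillaries and of caveolae. Of its paralogues, plvapa (ENSDARG00000076972) was at 7.34, 8.56, 8.85 and 10.7 CPM in WT, 5.96, 10.01, 8.32 and 7.63 CPM in the yap mutant and 4.96, 6.57, 6.65 and 4.59 CPM in the yap taz mutant. All yap taz mutant libraries lay below the WT range, and it fell there (-0.64 ± 0.188, adjusted p = 0.0177), a call lost on omission of WT 4, or of yap taz mutant 1 or 4 (adjusted p = 0.0537 to 0.0595). For plvapb (ENSDARG00000045003) the levels were 54.1, 61.3, 53.2 and 65.8 CPM in WT, 78.9, 82.0, 74.3 and 105 CPM in the yap mutant and 91.4, 118, 92.5 and 102 CPM in the yap taz mutant. Every mutant library lay above every WT library, with rises of 0.54 ± 0.116, adjusted p = 0.00880 and 0.78 ± 0.116, adjusted p = 0.000113.

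Ratios taken within a library do not depend on its scaling, and they show how far the paralogues parted. Given as a description with no test, the klf2a level over that of klf2b was 1.48 to 3.83 in WT, 0.953 to 2.41 in the yap mutant, but 0.527 to 0.912 in the yap taz mutant. The plvapa to plvapb ratio was 0.136 to 0.166, 0.0724 to 0.122 and 0.0449 to 0.0719 in the same order. For lyve1a over lyve1b it was 1.20 to 1.76, 4.17 to 5.60 and 5.45 to 9.88, and for kdrl over KDR 2.47 to 3.70, 2.48 to 3.86 and 1.65 to 2.61. The stab1 to stab2 ratio was 0.950 to 1.02 in WT and 0.987 to 1.04 in the yap mutant, where both genes varied together between libraries, and 1.11 to 1.44 in the yap taz mutant. The yap taz mutant libraries were outside the WT range for the klf2, plvap, lyve1 and stab ratios, and overlapped it for kdrl over KDR.

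**Figure D4:**
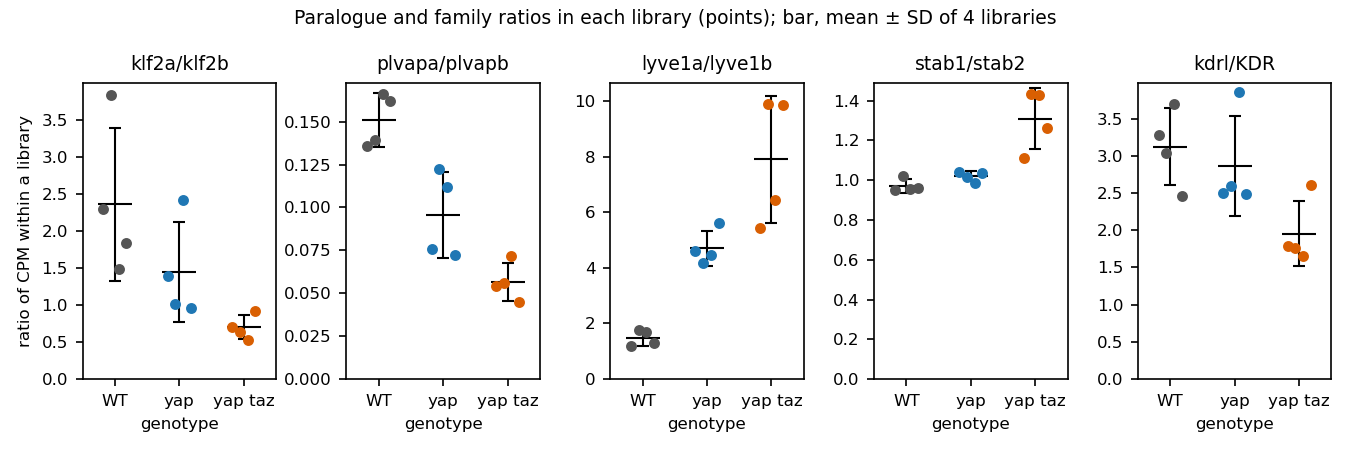
Ratio of the CPM of 2 related genes (y axis, from 0) in each library (points), with the mean ± SD of 4 libraries as bars. The stab1 to stab2 ratio stays near 1 in all WT and yap mutant libraries and is 1.11 to 1.44 in the yap taz mutant.

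Other genes of vessel signalling, from a list of 93 names that gave 90 tested genes outside the markers above, moved in both directions. In the yap mutant against WT 10 rose and 7 fell, in the yap taz mutant 19 and 13, and between the mutants 4 and 4. As shares these are 18.9%, 35.6% and 8.89%, beside the 9.13%, 27.7% and 4.18% of all genes. By direction, 11.1% rose and 7.78% fell in the yap mutant, beside 5.72% and 3.41% of all genes. In the yap taz mutant against WT 21.1% rose and 14.4% fell, beside 13.9% and 13.8%. The share that fell there was thus near that of all genes.

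The receptor phosphatase gene ptprb (ENSDARG00000076624), whose mammalian product VE-PTP acts on Tie2 and VE-cadherin, had the largest fall of this list among the genes named. It was at 26.7, 26.2, 25.2 and 27.6 CPM in WT, 17.0, 19.5, 21.3 and 13.1 CPM in the yap mutant and 3.87, 6.44, 5.32 and 6.21 CPM in the yap taz mutant. The 3 genotypes did not overlap, and its fold change was -0.58 ± 0.141, adjusted p = 0.0191 in the yap mutant, -2.28 ± 0.164, adjusted p = 1.18e-07 in the yap taz mutant and -1.70 ± 0.168, adjusted p = 8.41e-05 between the mutants. The first of these was lost on omission of yap mutant 1 or 4 (adjusted p = 0.0572 to 0.0578). Its partners' genes in the list above, tek and cdh5, had -0.64 ± 0.227, adjusted p = 0.0441 and 0.34 ± 0.0938, adjusted p = 0.0130 in the yap taz mutant against WT.

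The gene heg1 (ENSDARG00000018441), a receptor needed for the integrity of heart and vessels in zebrafish, fell between the mutants (-0.84 ± 0.148, adjusted p = 0.00410), with means of 13.0 ± 1.08, 9.51 ± 0.924 and 5.30 ± 0.898 CPM in WT, the yap mutant and the yap taz mutant. The surface sialomucin gene cd34 (ENSDARG00000095268) fell too (-0.60 ± 0.107, adjusted p = 0.00464), with means of 74.1 ± 9.59, 53.2 ± 3.06 and 35.2 ± 4.44 CPM. Both genes were also called lower in the yap mutant against WT. For cd34 (log2 fold change -0.48, adjusted p = 0.00873) that call held in all 21 alternatives. For heg1 (log2 fold change -0.45, adjusted p = 0.0466) it was lost in 12 of 21 (adjusted p = 0.0506 to 0.124). Among the rises, CLDN5 (ENSDARG00000014059), a claudin of the blood-brain barrier in mammals, went from 19.7, 24.5, 21.1 and 22.7 CPM in WT to 51.4, 45.4, 39.2 and 52.8 CPM in the yap mutant and 65.5, 66.2, 67.4 and 66.0 CPM in the yap taz mutant. Its genotypes did not overlap (1.104 ± 0.0986, adjusted p = 5.77e-06 and 1.59 ± 0.0979, adjusted p = 2.55e-08 against WT). A second CLDN5 gene (ENSDARG00000043716) had 0.19 ± 0.188, adjusted p = 0.558 and -0.24 ± 0.195, adjusted p = 0.384.

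CXCR4 (ENSDARG00000057633), a chemokine receptor of arterial endothelium and of many migrating cells, had means of 5.27 ± 0.447, 15.1 ± 3.20 and 24.05 ± 2.56 CPM and rose in both mutants (1.51 ± 0.156, adjusted p = 2.27e-05 and 2.18 ± 0.152, adjusted p = 8.25e-08). The second CXCR4 gene (ENSDARG00000041959) had -0.62 ± 0.205, adjusted p = 0.0680 and -0.89 ± 0.211, adjusted p = 0.00503, a fall in the yap taz mutant. CLDN11 (ENSDARG00000020031), a claudin gene, rose in each comparison (0.95 ± 0.106, adjusted p = 4.25e-05, 1.73 ± 0.105, adjusted p = 2.52e-08 and 0.77 ± 0.1004, adjusted p = 0.000775). The list also holds a second CLDN11 gene (ENSDARG00000030723), whose values are not given here. DAB2 (ENSDARG00000053091), named for an endocytic adaptor, rose in the yap mutant (0.53 ± 0.0815, adjusted p = 0.000770). Its means were 54.5, 78.4 and 91.6 CPM in WT, the yap mutant and the yap taz mutant, with no overlap between genotypes. The gene listed as dab2 (ENSDARG00000031761) had -0.45 ± 0.115, adjusted p = 0.0226 and -0.74 ± 0.117, adjusted p = 0.000210, the opposite sign. Symbols in capitals do not say which paralogue is meant, and claudins and CXCR4 also act in other tissues.

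**Figure D5:**
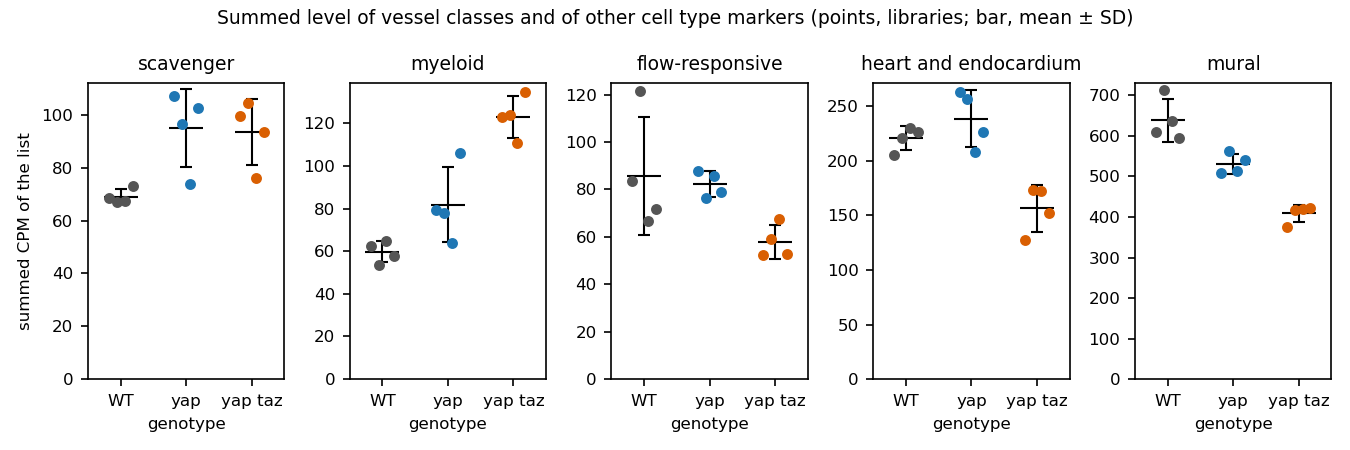
Summed CPM (y axis, from 0) of the scavenger and flow-responsive vessel genes and of the myeloid, heart and mural marker lists in each library (points), with the mean ± SD of 4 libraries as bars. The myeloid sum is 111 to 135 CPM in the yap taz mutant, above every library of the other genotypes, and the heart and mural sums are there below every other library. A sum weighs high genes most. In the mural list acta2 has means of 253 CPM in WT and 64.4 CPM in the yap taz mutant, and MYH11 (ENSDARG00000009782) 97.1 and 28.7 CPM. The median log2 fold change of the 10 tested mural markers is 0.12 there, with 2 called higher and 3 lower.

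Between the mutants, which differ by taz, klf2a, kdrl and AQP1 were lower and lyve1a was higher in the yap taz mutant, the 4 vessel genes called. For the surface and junction genes, sox18, SOX7 and dll4 the differences between the mutants were not called, which does not show that they were equal. They ran from -0.096 ± 0.141, adjusted p = 0.781 for ESAM to 0.28 ± 0.125, adjusted p = 0.238 for sox18. For clec14a and sox18 all yap taz mutant libraries lay above all yap mutant libraries, as they did for 5.28% of all genes tested. The levels were 24.1 to 27.5 against 21.0 to 23.6 CPM for clec14a and 12.1 to 13.3 against 8.999 to 11.9 CPM for sox18. Among the receptors flt1 (-0.39 ± 0.134, adjusted p = 0.113) and tek (-0.59 ± 0.229, adjusted p = 0.167), and the ligand gene VEGFC (-0.58 ± 0.205, adjusted p = 0.127), had lower values in the yap taz mutant that did not pass the test. MRC1 had -0.51 ± 0.153, adjusted p = 0.0756, with adjusted p = 0.0433 by DESeq2 and 0.0335 without yap taz mutant 1.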

How the data were processed

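Counts per Ensembl gene were deposited by the authors as whole numbers with no normalization. The submitters' processing notes name STAR 2.3.0e and HTSeq 0.6.0; the sources used here do not give the build, annotation or strand, so overlapping genes may share reads. Symbols came from a supplied list of names that covers 22531 of 25473 identifiers. Genes were filtered with filterByExpr (minimum count 10, minimum total 15), leaving 19493. After TMM scaling, edgeR 4.0.16 (R 4.3.3) fitted the 12 libraries together by quasi-likelihood, with genotype as the only term and no block. Tests were two-sided, adjusted over all genes. An SE is the log2 fold change over the square root of the F statistic. The fit was checked on simulated counts with known fold changes, and the shares recovered at each size of change are not given here.

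The limit that a count of 0 allows, 3 counts, is 0.334 to 0.443 CPM and covers counting error only. Nothing says that libraries are separate clutches, so p-values measure only the spread between them. No library was a copy of another.

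The genes, their classes and the other lists were chosen with earlier results of these data known. Every vessel gene is named. Of the other lists up to 4 called genes per comparison (vessel signalling) or 2 (cell type markers) are named by smallest p. NFATC1 and the second genes of CLDN5, CXCR4, DAB2 and TAGLN were added after their values were seen. The second genes of MYH11, SLC4A1 and CLDN11 are mentioned without their values.

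Same-numbered WT and yap mutant libraries had correlated deviations from their group means (0.180, 0.306, 0.282 and 0.388), above the 0.1 set for pairing. For WT with the yap taz mutant they were 0.166, 0.103, 0.0717 and -0.00482 and between the mutants 0.0512, -0.00323, 0.0648 and 0.0206, not taken as paired. As the labels state no pairing, the main fit had no block in any comparison, WT with the yap mutant included. The block was run as an alternative. Alternatives were DESeq2 size factors (RLE) or upper-quartile scaling, no filter, 1 CPM in 4 libraries, the 8 libraries compared alone, the replicate block, DESeq2 1.42.0, limma-voom (3.58.1), each library left out, and, chosen after seeing the data, the 8 libraries with the block.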

Additional observations from a re-analysis of the deposited data

Results flagged for a closer look

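In 2 of the 99 groups of 4 libraries examined, 1 library stood apart from the other 3. Chance alone gives about 1 in 20 such groups. For ecscr yap taz mutant 3 was the lowest at 11.97 CPM, where the other yap taz mutant libraries had 13.5 to 13.6 CPM, and it was still above every WT library. For klf2b WT 3 was the highest WT library at 26.8 CPM, where the others had 25.1 to 25.4 CPM.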

How the results depend on the processing

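Of the vessel genes called, 6 of 9 in the yap mutant, 12 of 17 in the yap taz mutant and 2 of 4 between the mutants stayed called in all 21 alternatives, and 0 changed sign. A further 4, 3 and 1 were called in some alternatives. The count over all genes in the yap mutant against WT was 1163 with the 8 libraries alone, 2758 with the replicate block, 3380 with both, and 942 to 3041 with a library left out. Between the mutants it was 1443 with the block and 441 to 1087 with a library left out. Vessel genes called between the mutants numbered 2 to 5 with a library left out. The causes were not tested. For unpaired comparisons the block gave 18 and 5 vessel genes called. In the fit of all 12 libraries the block moved the calls of clec14a, EGFL7 and stab2 in the yap mutant and of tek, FLT4, EFNB2 and MRC1 elsewhere, and no other vessel gene's; with the 8 libraries alone it also moved that of klf2b in the yap mutant. Over all genes tested an adjusted p rests on 4 libraries a group, and low genes such as lyve1b or VEGFC give wide errors.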

Other observations

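Mural cells, the smooth muscle and pericytes around vessels, were represented by 10 tested markers. In the yap mutant 2 rose and 2 fell, beside 5.72% and 3.41% of all genes. In the yap taz mutant 2 rose and 3 fell, beside 13.9% and 13.8%. MYH11 (ENSDARG00000009782), named for a smooth muscle myosin, was at 96.6, 98.1, 93.6 and 100.2 CPM in WT, 69.1, 80.9, 67.5 and 68.7 CPM in the yap mutant and 21.9, 31.8, 35.04 and 26.1 CPM in the yap taz mutant. Its genotypes did not overlap (-1.76 ± 0.116, adjusted p = 4.22e-08 for the yap taz mutant against WT). A second MYH11 gene (ENSDARG00000100972) of the list was not among the 3 markers called lower in the yap taz mutant. The smooth muscle actin gene acta2 fell in both mutants (-0.99 ± 0.170, adjusted p = 0.00183 and -1.97 ± 0.177, adjusted p = 9.36e-07). TAGLN (ENSDARG00000033466), named for an actin-binding protein of smooth muscle, rose in both mutants (0.54 ± 0.115, adjusted p = 0.00883 and 0.71 ± 0.115, adjusted p = 0.000261), while the second TAGLN gene (ENSDARG00000045408) fell in the yap taz mutant (-1.08 ± 0.162, adjusted p = 0.000130). Smooth muscle of the gut also expresses these contractile genes.

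Of the red cell genes, SLC4A1 (ENSDARG00000012881), the anion exchanger, fell in the yap taz mutant against WT (-1.31 ± 0.147, adjusted p = 8.54e-06) and the yap mutant (-1.03 ± 0.149, adjusted p = 0.00142). The gene alas2, of haem synthesis, fell against WT (-1.27 ± 0.342, adjusted p = 0.0111). Its levels were 37.5, 149, 99.9 and 46.9 CPM in WT and 30.0, 35.4, 39.3 and 33.3 CPM in the yap taz mutant, which overlapped. These were the only 2 of 8 tested erythroid and thrombocyte markers called against WT, beside 13.8% of all genes called lower. The median log2 fold change of the 8 was -0.015, and a second SLC4A1 gene (ENSDARG00000024560) was not among those called.

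Yap mutant 3 had the lowest level of the 4 yap mutant libraries for 16 of 33 tested vessel genes, where the other 3 were lowest for 3, 7 and 7.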
